A study of Rattus norvegicus with 30 samples.

Results

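The genes described here are 10 genes of choline uptake and phosphatidylcholine synthesis, out of 21993 genes listed for primary rat hippocampal neurons treated with fumarates or cannabidiol. They are the choline transporter-like genes *Slc44a1*, *Slc44a2*, *Slc44a3* and *Slc44a5*, the choline kinases *Chka* and *Chkb*, the CTP:phosphocholine cytidyltransferases *Pcyt1a* and *Pcyt1b*, and the phosphotransferases *Chpt1* and *Cept1*. They were taken by gene symbol, and the set was selected on a measured value, the higher read count of *Slc44a5* with cannabidiol (CBD) than with its vehicle at 24 h. That contrast is therefore described without a test for all 10 genes, and tests are given only for comparisons that hold none of its 6 libraries. An alternative fit took its spread from all 30 libraries, these 6 included. All 10 symbols were found, each as 1 protein-coding gene.

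Neurons from Wistar rat embryos at embryonic day 18 were kept for 7 days in culture and then treated for 4 or 24 h. The treatments were dimethyl fumarate (DMF) at 30 µM or monomethyl fumarate (MMF) at 30 µM, with dimethyl sulfoxide (DMSO) as vehicle, and CBD at 6 µM, with ethanol (EtOH) as vehicle. The cells were wild-type and the vehicle was kept at 0.2% throughout, so the DMSO and EtOH groups carry the same solvent as the drugs they serve. DMF is the diester of fumaric acid and MMF is its monoester, in which an acid group is free. CBD is a plant cannabinoid without the psychotropic action of tetrahydrocannabinol. The 10 groups had 3 poly(A) RNA libraries each, from 3 repeats of the experiment that carry the replicate numbers 1 to 3, and between 15108132 and 25367834 reads per library lay on genes.

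Choline enters cells through transporters, among them the choline transporter-like proteins of the SLC44 family, and most of it is built into phosphatidylcholine, the main phospholipid of cell membranes. In the CDP-choline pathway a choline kinase makes phosphocholine, a CTP:phosphocholine cytidyltransferase makes CDP-choline in the step that usually limits the rate, and a phosphotransferase joins CDP-choline to diacylglycerol. In neurons this route supplies membrane for growing neurites, and free choline is also the precursor of acetylcholine in cholinergic cells.

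The cultures expressed neuronal genes throughout. All 16 neuronal markers were detected, and their summed normalised read count lay between 107794 and 148089 over the 30 libraries. Markers of astrocytes (10 of 10 genes, sum 44562 to 112956) and of the oligodendrocyte lineage (12 of 12 genes, 10324 to 24665) were also read, as were 7 of 7 genes of dividing cells (2497 to 7570). Of the 10 genes of fibroblasts and vessels 9 were listed, with a sum of 1032 to 3616. Microglial genes were near the floor, with all 11 together at 61.9 to 426 and *Cx3cr1* and *Tmem119* under 3 on average. Of the cholinergic markers, the choline transporter *Slc5a7* alone was listed, at 54.0 to 186. The libraries are therefore bulk RNA of a mixed culture, in which more cells of a type and more RNA per cell cannot be told apart.

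The sequences before the RefSeq start sites of 4 genes that were called with DMF at 24 h or hold a motif of interest are shown first. They are 250 bases on the coding strand, 5′ to 3′, of the GRCr8 rat assembly. *Slc44a5* was higher with DMF at 24 h. *Slc44a3* was also higher there, but had 1 to 25 reads per library and a call that the filter on low counts favoured. *Pcyt1b* was lower, and *Pcyt1a* is the only member with a core antioxidant response element in this window. Capitals mark matches to the motifs searched, on either strand. The windows are chr2:245801741-245801990 (plus strand), chr2:212312628-212312877 (minus strand), chrX:62398568-62398817 (plus strand) and chr11:81862398-81862647 (minus strand).
Slc44a5: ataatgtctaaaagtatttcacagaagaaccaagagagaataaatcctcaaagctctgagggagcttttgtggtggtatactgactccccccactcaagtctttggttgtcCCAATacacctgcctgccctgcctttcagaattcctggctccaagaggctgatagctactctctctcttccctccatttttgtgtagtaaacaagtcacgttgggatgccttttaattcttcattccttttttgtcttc
Slc44a3: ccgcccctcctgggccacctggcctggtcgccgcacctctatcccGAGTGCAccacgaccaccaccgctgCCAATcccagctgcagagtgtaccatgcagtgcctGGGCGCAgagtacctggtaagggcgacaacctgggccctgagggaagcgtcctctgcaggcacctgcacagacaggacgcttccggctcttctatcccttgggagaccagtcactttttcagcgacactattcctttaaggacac
Pcyt1b: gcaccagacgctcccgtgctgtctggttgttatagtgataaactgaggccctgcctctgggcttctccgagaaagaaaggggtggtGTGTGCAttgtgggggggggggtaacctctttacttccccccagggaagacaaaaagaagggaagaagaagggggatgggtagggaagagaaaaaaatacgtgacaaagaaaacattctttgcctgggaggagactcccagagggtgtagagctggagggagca
Pcyt1a: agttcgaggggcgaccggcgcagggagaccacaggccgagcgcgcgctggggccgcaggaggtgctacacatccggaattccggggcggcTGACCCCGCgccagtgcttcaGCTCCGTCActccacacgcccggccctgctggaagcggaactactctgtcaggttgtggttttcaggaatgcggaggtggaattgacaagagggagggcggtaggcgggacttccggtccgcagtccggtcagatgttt

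The motifs were the antioxidant response element core TGACNNNGC, the metal response element cores TGCACNC and TGCGCNC, the C/EBP-ATF response element core TGATGNAA and the NF-Y box CCAAT. All 10 members had a window in the RefSeq table. The antioxidant core was present in 1 of 10 members against 10.2% of 27457 promoter windows, the metal cores in 3 of 10 against 21.2%, the C/EBP-ATF core in 0 of 10 against 3.27% and the NF-Y box in 5 of 10 against 34.3%. In *Slc44a5* the capitals are a single NF-Y box from 139 to 135 bases before the start. *Slc44a3* held 2 metal cores and 1 NF-Y box, *Pcyt1b* held 1 metal core, and *Pcyt1a* held 2 antioxidant cores, from 160 to 152 and from 139 to 131 bases before the start. The *Slc44a5* window also had the lowest share of G and C among the members, 43.2% against a median of 52.0% over all windows, while that of *Slc44a1* reached 81.2%. These are matches of letters in a short window before an annotated start, and binding was not measured.

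*Slc44a5* (ENSRNOG00000042332), a choline transporter-like gene, lies at chr2:242911325-243206404 of the mRatBN7.2 assembly and had between 395 and 1182 reads per library. To order its levels over the 10 groups, reads were scaled with 1 set of size factors for all 30 libraries. At 4 h the mean level was 464 ± 46.0 (SD, n = 3 in each group) in DMSO cultures, 489 ± 18.5 under DMF and 506 ± 15.0 under MMF. Ethanol cultures had 542 ± 6.90 and CBD cultures 618 ± 58.4 at that time. After 24 h the level was 565 ± 38.0 in DMSO, 576 ± 52.6 in MMF and 518 ± 59.6 in EtOH cultures, but 1089 ± 245 in DMF and 1033 ± 11.2 in CBD cultures. From the lowest to the highest group, each neighbouring pair had overlapping libraries except the step from CBD at 4 h to CBD at 24 h. The DMF and CBD groups at 24 h thus lay above the other 8 groups, and their libraries overlapped. Of the variation of its log2 level over the libraries, 91.9% lay between groups and 0.1% between replicate numbers.

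**Figure D1:**
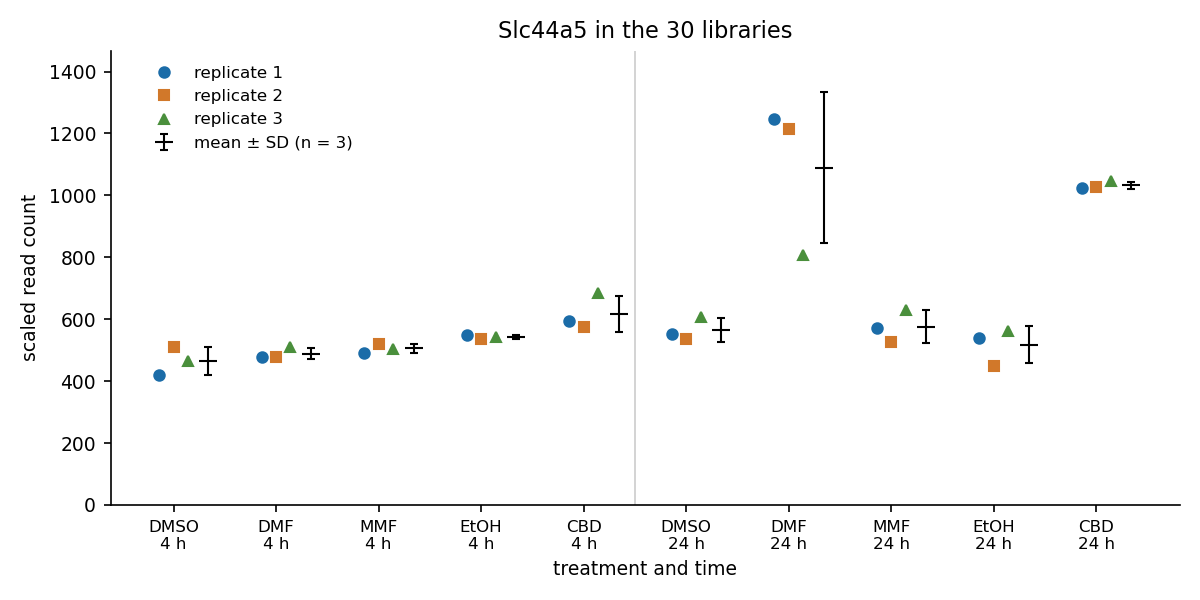
Scaled read counts of Slc44a5 (y axis, linear, 1 set of size factors for all libraries) by treatment and time (x axis), with a symbol for each replicate number and the mean ± SD of 3 libraries in black. The DMF and CBD libraries at 24 h lie between 807 and 1246, and the other 24 libraries between 418 and 685.

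In the contrast by which the set was chosen, the normalised read counts of *Slc44a5* were 1004, 1010 and 1022 with CBD at 24 h and 529, 441 and 554 with EtOH, so every CBD library was above every EtOH library. The log2 fold change (log2FC) was 1.00 ± 0.11 (SE), and the log2 ratios within replicate numbers 1, 2 and 3 were 0.92, 1.19 and 0.88. Over all genes, 7.35% of 14079 had every CBD library above every EtOH library, a share printed here only as background to the choice. *Slc44a5* was the only member with that order. The other 8 members that passed the filter on low counts had log2FC between -0.11 (*Pcyt1b*) and 0.19 (*Cept1*), each with overlapping libraries. *Slc44a3*, with few reads, was at 5.73, 9.68 and 21.6 with CBD and 11.0, 4.47 and 5.43 with EtOH. Neuronal markers summed to between 114500 and 124332 with CBD and to between 126519 and 148089 with EtOH at 24 h, and the part of cell makeup in the *Slc44a5* difference was not tested.

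At 4 h with CBD, *Slc44a5* was at 603, 584 and 693 against 556, 544 and 552 with EtOH. The CBD libraries lay above the EtOH libraries without overlap, but the difference was small, with a log2FC of 0.18 (95% confidence interval -0.01 to 0.38), and did not pass the test (adjusted p = 1.00, limma with Benjamini-Hochberg adjustment over all genes). No member was called in this comparison at an adjusted p under 0.05 by limma, DESeq2 or edgeR. By limma 0 members had an unadjusted p under 0.05, and the background was 0.00705% of 14193 genes. DESeq2 called 17 of 12206 genes and edgeR 1 of 14193. With the replicate number added to the limma model as a block, 0 members and 330 of 14193 genes were called. There 3 members had an unadjusted p under 0.05, and *Slc44a5* had an adjusted p of 0.206. *Chka* at -0.13 and *Chpt1* at 0.19 were the lowest and highest log2FC of the 9 members tested.

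With DMF at 24 h *Slc44a5* was also higher than with vehicle, in libraries that the choice did not use. The values were 1191, 1160 and 772 with DMF and 527, 513 and 580 with DMSO, and the groups did not overlap. *Slc44a5* rose with a log2FC of 0.92 ± 0.15 (SE), which is a fold change of 1.89 (adjusted p = 0.0143, limma). The rise was smaller in replicate 3, where the log2 ratio was 0.41, than in replicates 1 and 2, where it was 1.17 and 1.18. With the replicate block the adjusted p was 0.00163 (limma). In fits without the block, leaving out the DMF library of replicate 3 gave a log2FC of 1.12 (adjusted p = 0.000215). The call was lost without the DMF library of replicate 2 (0.83, adjusted p = 0.0593), the DMSO library of replicate 1 (0.90, adjusted p = 0.0863) or the DMSO library of replicate 2 (0.88, adjusted p = 0.0604).

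At 4 h no such difference was detected. *Slc44a5* was at 493, 492 and 527 with DMF and 432, 528 and 483 with DMSO, overlapping groups with a log2FC of 0.07 (95% confidence interval -0.16 to 0.30, adjusted p = 0.775, limma). The DMF effect at 24 h exceeded that at 4 h by 0.85 ± 0.20 on the log2 scale (adjusted p = 0.0334, limma interaction over 12 libraries). Without the replicate block *Slc44a5* was the only one of the 10 members called in this interaction, against a background of 4.12% of 14432 genes, although the call was lost in 10 of the 12 fits that each left out 1 library (adjusted p of 0.053 to 0.0889). It held without the 4 h DMSO library of replicate 1 or the 24 h DMF library of replicate 3. Between 4 and 24 h of DMF itself, *Slc44a5* rose from 508, 506 and 540 to 1325, 1289 and 860 (log2FC 1.13 ± 0.16, adjusted p = 0.00293, limma). It was the only member called there without the block, against a background of 15.5% of 14283 genes.

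MMF at the same dose gave *Slc44a5* counts of 574, 528 and 632 at 24 h against 555, 539 and 610 with DMSO, and the groups overlapped. The log2FC was 0.02, with a 95% confidence interval of -0.17 to 0.22 (adjusted p = 0.989, limma). The diester and the monoester were compared directly for each of the 10 members at both times, with p-values adjusted over all genes, and *Slc44a3* could be tested at 24 h only. At 24 h *Slc44a5* was at 1316, 1283 and 852 with DMF and 606, 555 and 665 with MMF, and was higher with DMF by a log2FC of 0.89 (95% confidence interval 0.53 to 1.26, adjusted p = 0.0215, limma). With the replicate block the adjusted p was 0.00268 (limma). In fits without the block, the call was lost without the DMF library of replicate 1 (adjusted p = 0.0745) or 2 (0.0856) and without the MMF library of replicate 1 (0.105) or 2 (0.0884). At 4 h the 2 fumarates differed by -0.06 (95% confidence interval -0.26 to 0.14), which did not pass the test (adjusted p = 0.794). These comparisons share DMF libraries with those against DMSO, and the DMF and MMF comparisons with vehicle share DMSO libraries, so they do not repeat each other independently.

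With DMSO alone, *Slc44a5* was at 389, 474 and 433 at 4 h and at 513, 499 and 568 at 24 h. The groups did not overlap, but the log2FC of 0.29 ± 0.10 did not pass the test (adjusted p = 0.448, limma). No member was called between 4 and 24 h with DMSO by limma, DESeq2 or edgeR, although *Slc44a5* and *Pcyt1b* were the 2 members with an unadjusted p under 0.05. The background was 0% of 13968 genes by limma, where 1362 genes had an unadjusted p under 0.05, and DESeq2 called 49 genes and edgeR 0. For MMF at 24 against 4 h, 0 members were called by limma, DESeq2 or edgeR and 0 had an unadjusted p under 0.05. There the background was 0% of 14171 genes by limma, with 1488 at an unadjusted p under 0.05, 51 called by DESeq2 and 0 by edgeR.

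*Slc44a3* (chr2:209552144-209629044), another choline transporter-like gene, was the member with the fewest reads, between 1 and 25 per library. With DMF at 24 h its normalised counts were 12.3, 23.9 and 15.2, from 12, 22 and 20 reads, against 3.27, 3.41 and 1.24 with DMSO, from 3, 4 and 1 reads. The groups did not overlap and *Slc44a3* rose with a log2FC of 2.33 ± 0.46 (adjusted p = 0.0273, limma, and 0.00821 with the replicate block). Summed over the libraries, 54 reads with DMF against 8 with DMSO gave a ratio of 6.08. Its exact 95% interval of 2.87 to 14.8 covers counting error only. On the common scale DMSO at 24 h had the lowest mean of the 10 groups, 2.76, next to 2.77 with EtOH at 4 h, and the others lay between 4.66 and 17.9. The mean was 7.10 with EtOH at 24 h and 12.6 with CBD at 24 h, whose libraries overlapped those of DMF. *Slc44a3* passed the filter on low counts only in comparisons that hold the DMF group at 24 h, where it was highest, so that its call was favoured by the filter. The call was lost in 5 of the 6 fits without 1 library, with adjusted p of 0.055 to 0.145, the exception being the fit without the DMF library of replicate 3. Against MMF at 24 h the values were 13.6, 26.4 and 16.7 with DMF and 7.02, 8.20 and 6.60 with MMF, without overlap, and the log2FC of 1.22 ± 0.36 did not pass the test (adjusted p = 0.116, limma). With MMF against DMSO at 24 h, where too few reads left it untested, *Slc44a3* was at 6.66, 7.80 and 6.27 against 3.44, 3.59 and 1.31.

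*Slc44a1*, the broadly expressed choline transporter of the family, and *Slc44a2*, its close relative also known as a mitochondrial choline carrier, varied little between groups. *Slc44a1* was at 720, 703 and 630 with DMF at 24 h and 787, 737 and 692 with DMSO (log2FC -0.11 ± 0.08, adjusted p = 0.559, limma). Over the 10 groups its mean level ranged only from 716 (DMF at 24 h) to 839 (EtOH at 24 h), and its level was lowest in replicate 3 in 10 of 10 groups. *Slc44a2* was at 2086, 1983 and 1940 with DMF at 4 h and 1918, 1751 and 1669 with DMSO. These groups did not overlap, but the log2FC of 0.17 ± 0.08 did not pass the test (adjusted p = 0.249, limma). When the model included the replicate number as a block, the same difference had an adjusted p of 0.0295. Against MMF at 4 h the log2FC of *Slc44a2* was 0.23 ± 0.08 (adjusted p = 0.164, and 0.00793 with the block). By 24 h its levels with DMF were 1677, 1561 and 1398 against 1697, 1660 and 1565 with DMSO, with overlap.

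**Figure D2:**
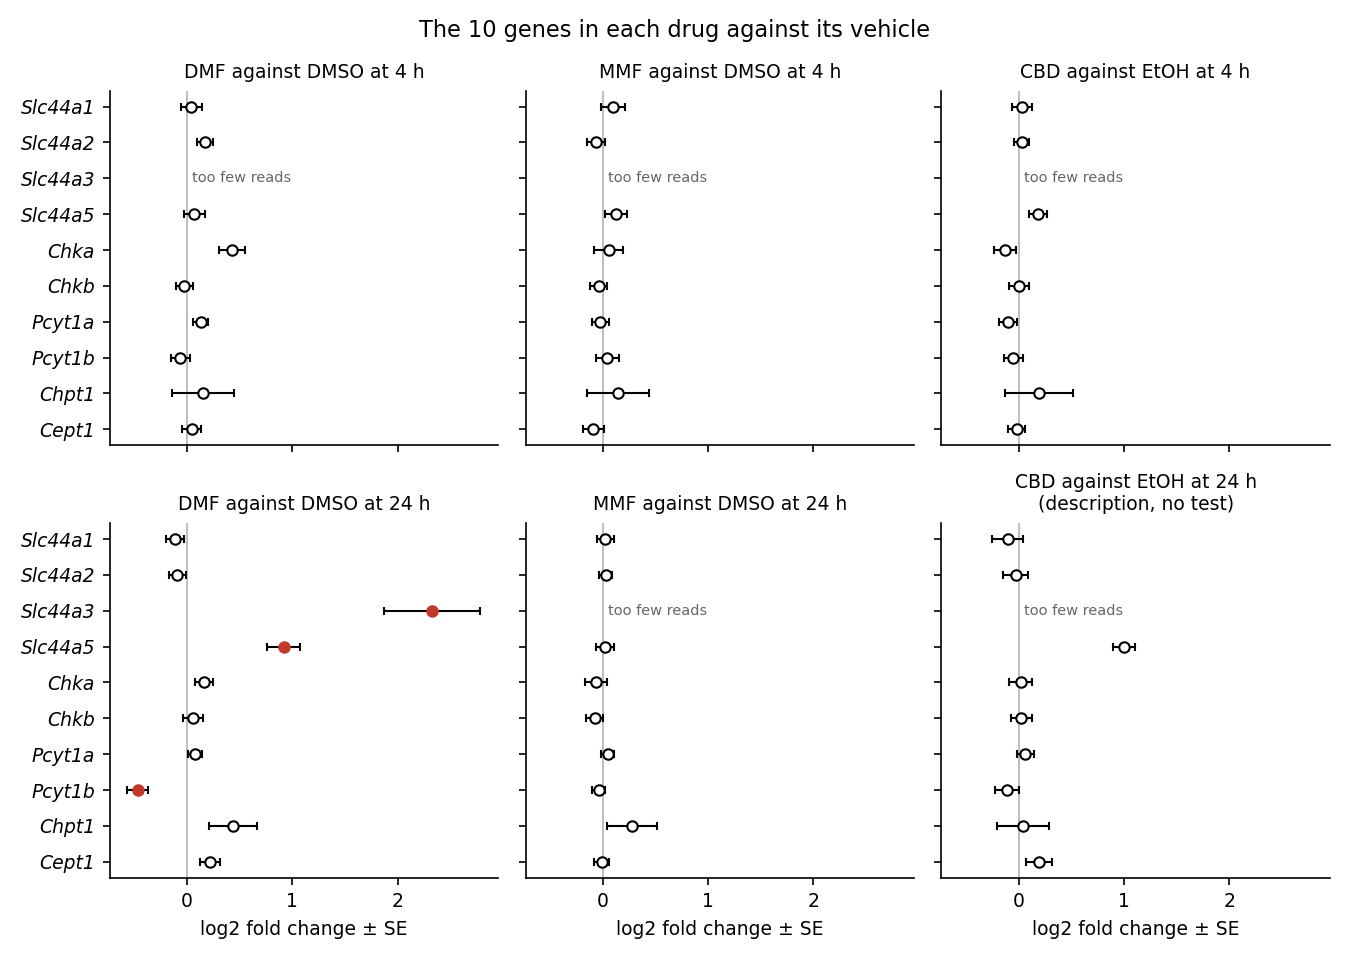
Log2 fold changes with their SE (x axis) of the 10 genes (y axis) in the 6 comparisons of a drug with its vehicle, 3 libraries a group. Filled red points passed the test at an adjusted p under 0.05 (limma), open points did not, and the panel for CBD at 24 h is a description without a test. Slc44a5 lies at 0.92 with DMF and 1.00 with CBD at 24 h, and between 0.02 and 0.18 in the other 4 panels.

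*Chka*, which encodes choline kinase alpha, the enzyme of the first step, had its highest group mean with DMF at 4 h, 1948 ± 193 on the common scale (SD, n = 3). Its counts were 1805, 2209 and 2017 with DMF and 1406, 1785 and 1317 with DMSO, and the DMF libraries lay above all DMSO libraries. The log2FC of 0.43 ± 0.12 did not pass the test (adjusted p = 0.101, limma). Replicate 2 had the highest *Chka* level in every group, and the log2 ratios within replicates 1, 2 and 3 were 0.36, 0.31 and 0.61. With the replicate block the same difference had an adjusted p of 0.000231, and DESeq2 gave 0.0408. Against MMF at 4 h *Chka* was at 1787, 2185 and 1992 with DMF and 1374, 1755 and 1504 with MMF, a log2FC of 0.37 ± 0.11 (adjusted p = 0.142, limma, and 0.000192 with the block).

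Over both 4 h comparisons of DMF, *Chka* and *Slc44a2* were the members called with the block, 2 of the 9 tested in each, against a background of 23% of 14208 genes for DMSO as the control and 23.6% of 14200 genes for MMF. These shares are close to the background. Without the block 0 members were called, against 3.41% of 14208 genes for DMF against DMSO and 1.61% of 14200 genes for DMF against MMF. At an unadjusted p under 0.05 there was 1 member against DMSO (*Chka*) and there were 2 against MMF (*Chka* and *Slc44a2*). DESeq2 called 1 and 0 members in these comparisons, beside 6.52% of 15162 and 5.17% of 14358 genes. With edgeR there were 0 and 0, beside 498 of 14208 and 265 of 14200 genes. At 24 h *Chka* was at 1552, 1770 and 1586 with DMF and 1457, 1614 and 1324 with DMSO, overlapping groups with a log2FC of 0.16 ± 0.09 (adjusted p = 0.395, limma).

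*Chkb*, which encodes choline kinase beta, had the narrowest range of group means, from 691 with EtOH at 24 h to 769 with DMF at 24 h, a ratio of 1.11. Its log2FC lay between -0.08 and 0.06 in the 6 comparisons with vehicle. The adjusted p was 0.823 for DMF at 24 h and higher in the other 4 tested comparisons with vehicle.

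Of the cytidyltransferase genes, *Pcyt1b* passed the test with DMF at 24 h and *Pcyt1a* did not. *Pcyt1b* (chrX:58378116-58468935), which encodes the beta isoform that is most abundant in brain, was at 706, 545 and 636 with DMF and 861, 879 and 858 with DMSO, without overlap. *Pcyt1b* fell with a log2FC of -0.47 ± 0.10, which is 0.723 of the DMSO level (adjusted p = 0.0332, limma), and the log2 ratios within replicates 1, 2 and 3 were -0.29, -0.69 and -0.43. With the replicate block the adjusted p was 0.00527. In fits without the block, the call was lost without the DMF library of replicate 2 (adjusted p = 0.0923) and without each of the DMSO libraries (0.107 to 0.144). Against MMF at 24 h *Pcyt1b* was at 780, 603 and 702 with DMF and 990, 873 and 941 with MMF, without overlap. That log2FC of -0.43 ± 0.10 missed the threshold (adjusted p = 0.0638, limma) but passed it with the block (0.00383), by DESeq2 (0.0126) and without the DMF library of replicate 1 (0.0447). *Pcyt1b* was lowest with DMF at 24 h (658 ± 84.2 on the common scale, SD, n = 3) and highest with DMSO at 24 h (906 ± 11.7). At 4 h its log2FC with DMF was -0.06 (adjusted p = 0.782), and the difference between the DMF effects at both times, -0.41 ± 0.14, did not pass the test (adjusted p = 0.115, limma).

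*Pcyt1a* encodes the ubiquitous alpha isoform of the same enzyme and is the member whose window holds the antioxidant cores printed above. It was at 1471, 1518 and 1431 with DMF at 24 h and 1387, 1482 and 1318 with DMSO, and these overlapped (log2FC 0.08 ± 0.07, adjusted p = 0.606, limma). With DMF at 4 h it was at 1790, 1903 and 1707 against 1611, 1733 and 1586 with DMSO, again with overlap (log2FC 0.13 ± 0.07, adjusted p = 0.371). *Pcyt1a* passed the test in none of the comparisons without the block, and with it in DMF at 24 against 4 h alone (log2FC -0.17, adjusted p = 0.0473).

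The last step is shared by *Chpt1*, which encodes a choline phosphotransferase of the Golgi, and *Cept1*, whose product uses CDP-choline as well as CDP-ethanolamine. *Chpt1* was at 612, 606 and 343 with DMF at 24 h and 397, 435 and 297 with DMSO. These groups overlapped because replicate 3 was low in both, and the log2FC of 0.44 ± 0.23 did not pass the test (adjusted p = 0.375, limma). Within replicate numbers the log2 ratios were 0.62, 0.48 and 0.21, and with the replicate block the adjusted p was 0.0136. Without the DMF library of replicate 3 the log2FC was 0.71 (adjusted p = 0.0195). Of the variation of *Chpt1* over the 30 libraries 83.7% lay between replicate numbers and 10.9% between groups, and replicate 3 was lowest in 10 of 10 groups. *Slc44a1* and *Slc44a2* were lowest in replicate 3 in 10 of 10 groups too. Of the marker sums, those of astrocytes were lowest there in 10 of 10 groups, and those of the oligodendrocyte lineage and *Slc5a7* in 9. Genes of microglia and genes of fibroblasts and vessels were lowest in replicate 3 in 7, dividing-cell genes in 6 and neuronal genes in 0. The part of cell makeup in the *Chpt1* levels was not tested. The span of *Chpt1* shares 3907 bases with that of *Gnptab*, whose median was 2077 reads against 482 for *Chpt1*, and 14457 bases with that of *Sycp3*. The strand setting of the counting is not given in the sources used here, so reads in these stretches cannot be assigned with certainty.

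*Cept1* was at 579, 544 and 476 with DMF at 24 h and 477, 460 and 433 with DMSO, with the lowest DMF library just under the highest DMSO library (log2FC 0.22 ± 0.10, adjusted p = 0.282, limma). Its mean level over the groups ranged from 457 with CBD at 4 h to 558 with DMF at 24 h.

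**Figure D3:**
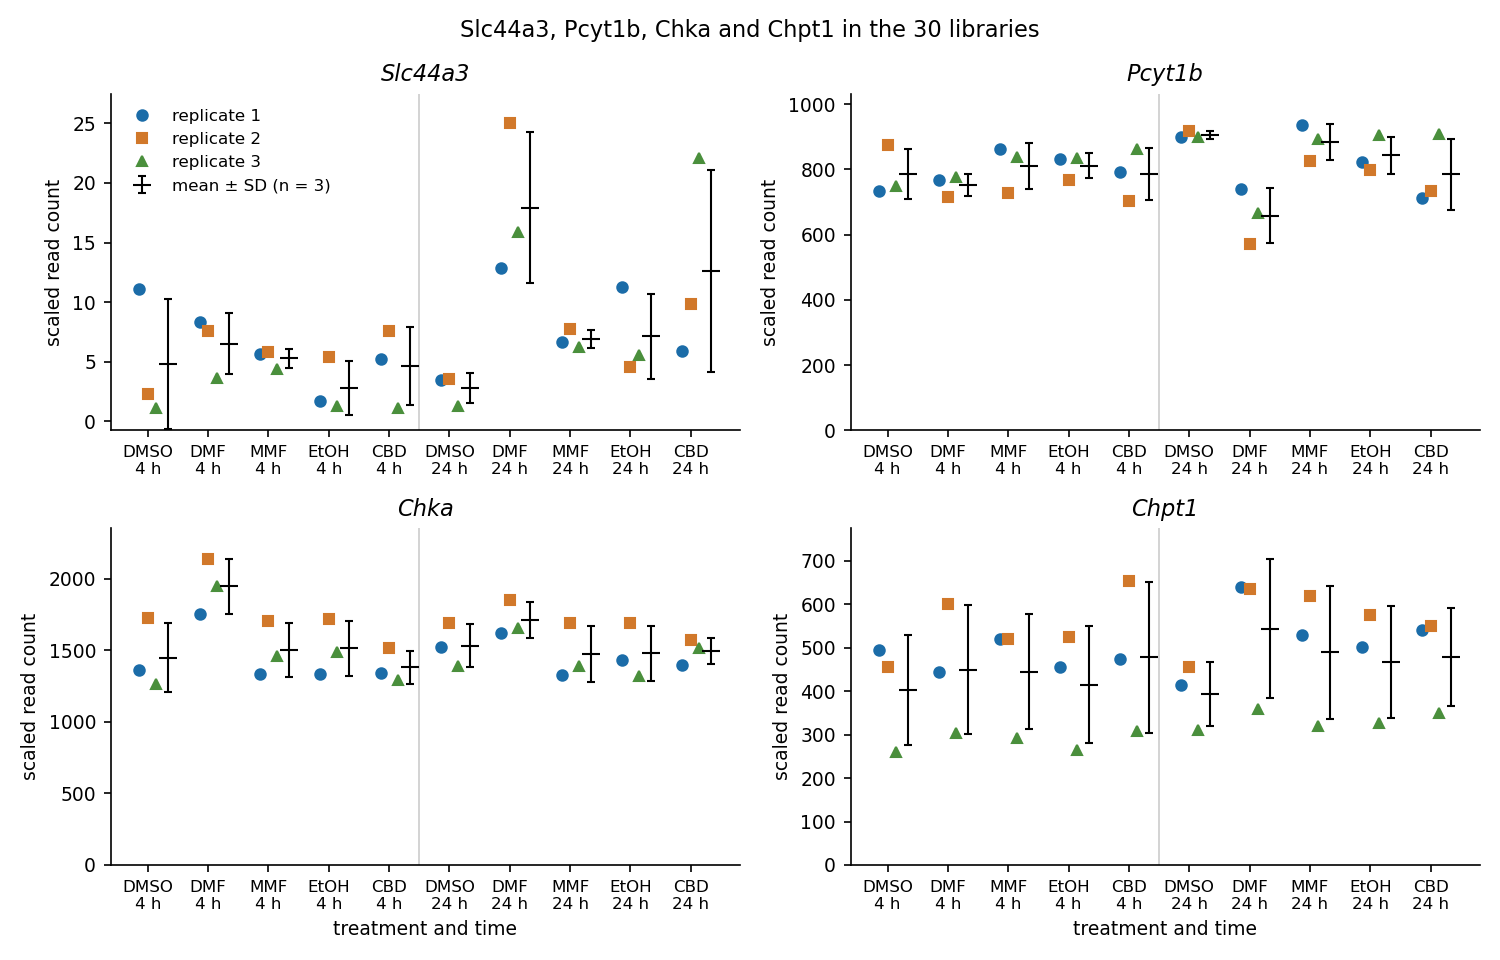
Scaled read counts (y axes, linear) of Slc44a3, Pcyt1b, Chka and Chpt1 by treatment and time (x axes), with a symbol for each replicate number and the mean ± SD of 3 libraries in black. Slc44a3 reaches 12.9 to 25.0 with DMF at 24 h, Pcyt1b is lowest there (571 to 739), Chka is highest with DMF at 4 h (1753 to 2139), and replicate 3 of Chpt1 lies below the others in every group.

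Over the set, DMF at 24 h called 3 members by limma, *Slc44a5* and *Slc44a3* higher and *Pcyt1b* lower, against a background of 3.97% of 13967 genes. DESeq2 also called 3, beside 835 of 14944 genes, and edgeR 3, beside 535 of 13967 genes. *Slc44a3* was tested only because the DMF group carried it past the filter, and *Slc44a5* is the gene for whose rise with CBD the set was picked. Of the 3 calls, only that of *Pcyt1b* can therefore be read against the background. These limits hold for every count of members that includes *Slc44a5* or *Slc44a3*. With the replicate block there were 4 calls, *Chpt1* being the addition, against 12.9%, with *Slc44a5* and *Slc44a3* among them. The count of 3 fell to 0 without the DMF library of replicate 2 or the DMSO library of replicate 1 or 2, and to 1 without the DMSO library of replicate 3. The median log2FC of the members was 0.12, beside -0.01 over all genes tested. DMF against MMF at 24 h called 1 member (*Slc44a5*) against 3.56% of 14233 genes, and with the block 3 (*Slc44a5*, *Pcyt1b* and *Chka*) against 12.2%. There the intervals of the remaining differences were -0.35 to 0.07 for *Slc44a1*, -0.31 to 0.08 for *Slc44a2*, -0.06 to 0.33 for *Chkb*, -0.11 to 0.17 for *Pcyt1a*, -0.48 to 0.79 for *Chpt1* and 0.02 to 0.44 for *Cept1*, on the log2 scale. The adjusted p of *Chka* with the block was 0.0431. With the block, DMF at 24 against 4 h called 6 members against 32.3%, again with *Slc44a5* and *Slc44a3* among them. Besides *Slc44a5* these were *Slc44a2* (log2FC -0.26, adjusted p = 0.0085), *Slc44a3* (1.36, 0.0284), *Chka* (-0.18, 0.0422), *Pcyt1a* (-0.17, 0.0473) and *Chpt1* (0.29, 0.0467). The DMF interaction called 2 with the block, *Slc44a5* and *Slc44a2* (-0.26, adjusted p = 0.0321), against 13.2%. MMF called 0 of 9 members tested at 4 h (background 0% of 14032 genes) and 0 of 9 at 24 h (0.00707% of 14137 genes), and its interaction called 0 of 9 (0% of 14413 genes). In these 3 MMF comparisons 0 members had an unadjusted p under 0.05 by limma without the block and, where they were run, DESeq2 and edgeR called 0 members. Over all genes, MMF at 4 h had 36 genes, MMF at 24 h 626 and the MMF interaction 131 with an unadjusted p under 0.05. DESeq2 and edgeR called 0 genes for MMF at 4 h. At 24 h DESeq2 called 8 of 19923 genes and edgeR 1 of 14137. With the block, MMF at 24 h called 0 members and 195 of 14137 genes, and 1 member had an unadjusted p under 0.05.

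Markers of other cells also fell with DMF at 24 h. Of the 7 genes of dividing cells 6 fell, such as *Top2a* (log2FC -1.47 ± 0.10, adjusted p = 0.000511, limma) and *Mki67* (-1.04 ± 0.10, adjusted p = 0.00116), and their sum was 2497 to 3067 with DMF against 5256 to 5619 with DMSO. Of 10 tested genes of the oligodendrocyte lineage 5 fell, *Pdgfra* by 1.56 on the log2 scale (adjusted p = 0.00136), and the list summed to 12995 to 15790 against 16264 to 20103. Of 10 astrocyte genes 1 fell, and the sums overlapped (62627 to 112956 against 59395 to 99398). The 16 neuronal markers did not pass the test, with sums of 107960 to 129825 with DMF and 127539 to 142772 with DMSO, nor did the 2 tested microglial genes. The 8 tested genes of fibroblasts and vessels did not pass it either, and their list summed to 1092 to 1422 with DMF against 1032 to 1467 with DMSO. Whether these shifts in other cells carry part of the changes of *Slc44a5*, *Slc44a3* or *Pcyt1b* was not tested.

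Beyond the 10 members, 55 genes of choline and phospholipid metabolism were followed, covering other choline transporters, other uses of choline, the ethanolamine branch, diacylglycerol supply, acyl chain remodelling, breakdown, and sphingomyelin synthesis. With DMF at 24 h 48 of them were tested, 2 rose and 0 fell, a share of 4.17% that is close to the 3.97% called over all genes. *Lpcat1*, which adds an acyl chain back to lysophosphatidylcholine, was at 2857, 3934 and 2731 with DMF and 1205, 1313 and 1301 with DMSO. It rose with a log2FC of 1.30 ± 0.13 (adjusted p = 0.00116, limma). *Lpin1*, a phosphatidate phosphatase that makes the diacylglycerol used by the last step, was at 669, 688 and 609 against 496, 475 and 404, and rose with a log2FC of 0.52 ± 0.10 (adjusted p = 0.0246, limma). The other 46 did not pass the test, and the median log2FC of the 48 was 0.04. The *Lpcat1* call held without each library in turn, whereas that of *Lpin1* held only without the DMF library of replicate 3 (0.0673 to 0.104 without each of the others). With the replicate block 4 genes were called (8.33%), against 12.9% over all genes.

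Both genes were also higher with DMF than with MMF at 24 h, *Lpcat1* by a log2FC of 1.33 ± 0.13 (adjusted p = 0.000987, limma) and *Lpin1* by 0.61 ± 0.08 (adjusted p = 0.00689), and 0 of 48 were lower. These 2 of 48 stood against 3.56% over all genes, and with the block 6 of 48 (12.5%) against 12.2%, so both shares are close to the background. With MMF against DMSO *Lpcat1* was at 1260, 1317 and 1344 against 1268, 1379 and 1367. In the CBD contrast that chose the set, described without a test, *Lpcat1* lay the other way. It was at 898, 1001 and 870 with CBD and 1241, 1365 and 1376 with EtOH, with no overlap and a log2FC of -0.52 ± 0.09, while *Lpin1* was at 486, 460 and 534 against 416, 391 and 494. *Slc44a5* was thus higher with DMF and with CBD at 24 h, and *Lpcat1* was higher with DMF and lower with CBD. The difference between the effects of DMF and CBD was not tested.

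**Figure D4:**
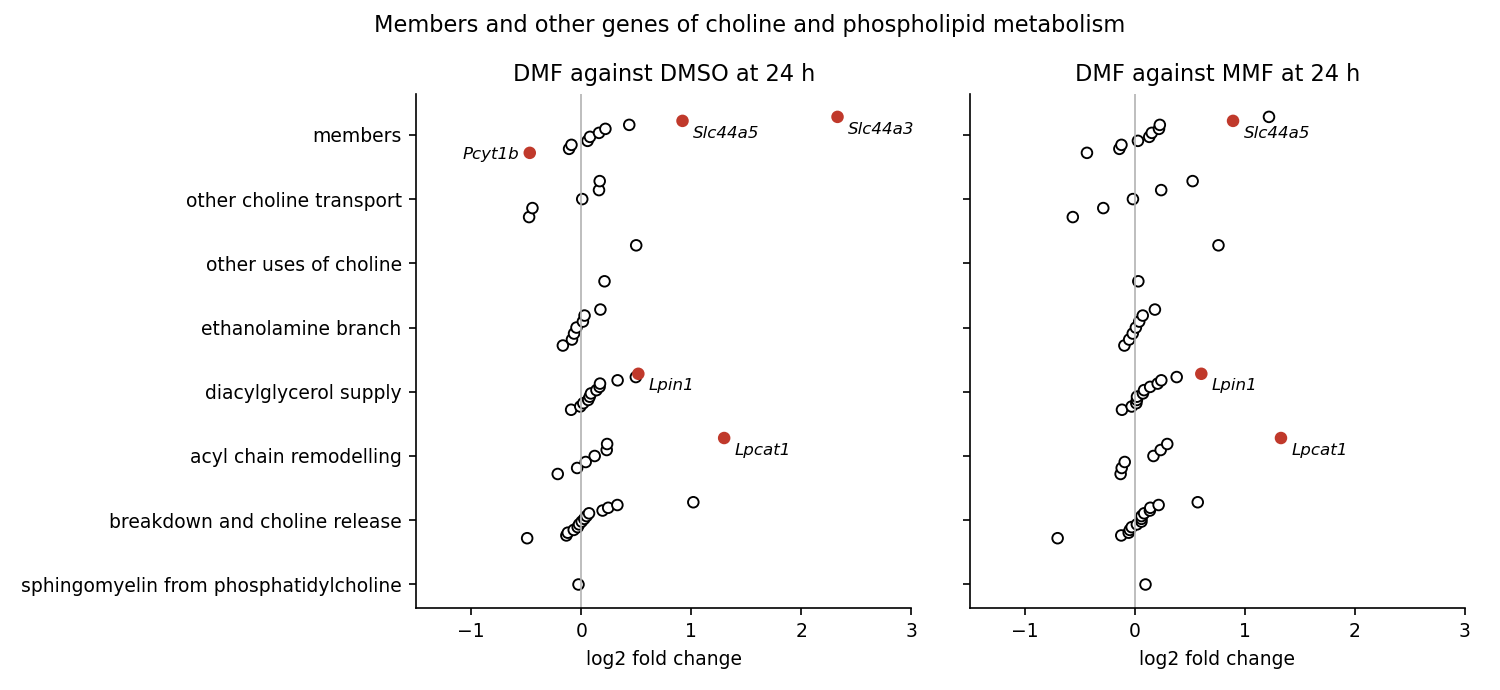
Log2 fold changes (x axes) of the members and of 7 groups of other genes of choline and phospholipid metabolism (y axis), for DMF against DMSO and DMF against MMF at 24 h. Each point is 1 tested gene, and named filled red points passed the test at an adjusted p under 0.05 (limma); Lpcat1 (1.30 and 1.33) and Lpin1 (0.52 and 0.61) passed in both.

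Between 4 and 24 h of DMF, 5 of 49 tested genes of this list rose and 1 fell, a share of 12.2% against 15.5% over all genes. The 4 with the smallest p were *Agpat4*, an acyltransferase of the route to phosphatidic acid (log2FC 0.49 ± 0.08, adjusted p = 0.00506, limma), *Flvcr1*, which carries choline (-0.44 ± 0.09, adjusted p = 0.0122), *Pld1*, a phospholipase that releases choline (0.75 ± 0.15, adjusted p = 0.0138), and *Lpcat1* (0.77 ± 0.16, adjusted p = 0.017). The other 2 that rose were *Chdh*, whose call was lost in 3 of the 6 fits without 1 library, and *Etnk2*, whose call was lost in 5 of the 6 and without the filter on low counts (adjusted p = 0.0514, limma). Without the DMF library of replicate 2 at 24 h only *Agpat4* was still called, and *Flvcr1* was also lost without the DMF library of replicate 2 at 4 h (0.052). With the block 19 of 49 (38.8%) were called, against 32.3% over all genes. In the other 9 tested comparisons and interactions 0 genes of the list were called by limma without the block. With it, the DMF interaction called 6 of 49 (12.2%), against 13.2% over all genes. For DMF at 4 h, DESeq2 called 3 against DMSO and 1 against MMF, where it called 6.52% of 15162 and 5.17% of 14358 genes. The block called 10 of 48 (20.8%) against DMSO and 16 of 49 (32.7%) against MMF, beside 23% and 23.6% over all genes.

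The 5 genes whose log2 levels followed *Slc44a5* most closely over the 30 libraries, among 14930 genes and after the mean of each replicate number was removed, were *Fhl1* (Pearson r = 0.898), *Prxl2a* (0.866), *Abca8* (0.859), *Cd151* (0.853) and *Ift122* (0.851). The points share libraries and treatments, so these values are a description. *Fhl1*, a LIM-domain gene, was at 6660 ± 468 (SD, n = 3) with DMF at 24 h and 5631 ± 182 with CBD at 24 h, against 4906 ± 245 with DMSO and 4859 ± 326 with EtOH at 24 h. *Prxl2a*, a peroxiredoxin-like gene, was at 1007 ± 170 and 998 ± 118 with these drugs against 769 ± 26.8 and 806 ± 35.5 with the vehicles. *Abca8*, of the ABC transporters, was at 763 ± 206 and 472 ± 74.1 against 409 ± 27.7 and 360 ± 50.3. For *Cd151*, a tetraspanin gene, the DMF and CBD means were 3739 ± 436 and 3545 ± 888, and for *Ift122*, of intraflagellar transport, 1424 ± 137 and 1375 ± 36.0. All 5 genes had their highest group mean with DMF at 24 h and the next with CBD at 24 h. *Slc44a5* has the same order, so this follows largely from how the 5 genes were picked. The 30 libraries also include those of the contrast that chose the set. Without removal of the replicate means, 4 of these 5 were again among the 5 most alike.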

How the data were processed

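Poly(A) RNA of the 30 libraries was sequenced, and per the labels and the study's methods the authors used Cutadapt 4.4, Trimmomatic 0.39, HISAT2 2.2.1 on mRatBN7.2, HTSeq 2.0.3 with Ensembl release 111 and DESeq2 1.40.2. The deposited signal values are read counts per gene divided by 1 size factor per library, within the table of each pair of groups. Their columns of fold changes and p-values were not used. Whole reads were recovered for 100% of 1168811 values above 0 (tolerance 0.01). The results rest on 11 of the 19 deposited files. The strand setting and exon lengths are not given in the sources used here, so levels were not compared between genes.

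Members and lists were chosen with earlier results of these data known. The test was limma 3.58.1 (R 4.3.3, empirical Bayes with a mean trend) on log2(normalised count + 1), so fold changes of low genes are understated. Genes were kept by filterByExpr of edgeR 4.0.16, p-values of all tested genes were corrected together by the Benjamini-Hochberg method, and calls were made at an adjusted p under 0.05. Interactions and group levels used 1 set of median-ratio size factors. The scripts were tested on simulated data. The files do not say whether replicates came from separate animals, so p-values measure the spread between these libraries. Same-numbered libraries deviated together in every comparison (r of 0.129 to 0.668, against -0.577 to 0.185 between different numbers, minimum set at 0.1), so the numbers pair the samples. The main p-values and the fits without 1 library nevertheless come from the model without this pairing. Values with a replicate block are given where they change a call and for some calls that they keep.

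All 10 members are named. Of the other pathway genes, the called genes with the smallest p are named, up to 4 per comparison, and *Chdh* and *Etnk2* were named after their values were seen. The 5 genes most like *Slc44a5* have the highest Pearson r. The marker genes *Top2a*, *Mki67* and *Pdgfra* were also named after their values were seen. Promoters come from the RefSeq table of GRCr8. Alternatives were DESeq2 1.42.0 and edgeR on whole reads, no filter, a pseudocount of 0.1, TMM scaling, the block, the spread of all 30 libraries, and leaving out each library. For the other pathway genes they were added after the data were seen.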

Additional observations from a re-analysis of the deposited data

Results flagged for a closer look

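The effect of DMF on *Slc44a5* was compared between the times. The limma interaction gave a difference of 0.85 on the log2 scale between the effect at 24 h and that at 4 h (SE 0.20, adjusted p = 0.0334, and 0.00827 with the replicate block). The call held in 2 of the 12 fits that each left out 1 library, without the 4 h DMSO library of replicate 1 or the 24 h DMF library of replicate 3, and the adjusted p reached 0.0889 in the others. All 3 DMF libraries at 24 h were above all 3 DMSO libraries, while at 4 h the groups overlapped. The dividing-cell markers also fell with DMF at 24 h, and their part in this difference was not tested.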

How the results depend on the processing

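No result changed direction past the threshold under the alternatives run. The replicate block, by which same-numbered libraries are paired, raised the number of members called from 0 to 2 for DMF against DMSO at 4 h and from 0 to 2 for DMF against MMF at 4 h. Over all genes the block called 23% and 23.6% in these comparisons. The block raised the number from 1 to 3 for DMF against MMF at 24 h, from 1 to 6 for DMF at 24 against 4 h and from 1 to 2 for the DMF interaction. There it called 12.2%, 32.3% and 13.2% of all genes in turn, and it ended no member's call. DESeq2 called 1 member for DMF against DMSO at 4 h, beside 989 of 15162 genes, and 2 for DMF against MMF at 24 h, beside 829 of 14231 genes. The spread of all 30 libraries gave 1 and 2 members in these comparisons, beside 1517 and 679 of 14930 genes. It gave 2 for DMF at 24 against 4 h, beside 3343 of 14930 genes. This spread also draws on the 6 libraries of the contrast that chose the set. Leaving out each library gave 0 to 4 members for DMF against DMSO at 24 h, 0 to 1 for DMF against MMF at 24 h and 0 to 1 for the DMF interaction, with fewer libraries in each fit. The shares over all genes in those fits are not given here, so these counts have no background beside them. The numbers of members called kept within 1.5 times under edgeR, no filter, the pseudocount of 0.1 and TMM scaling. The cause of the other differences was not tested. Over all genes, the block called 3274 for DMF against DMSO at 4 h where the fit without it called 485, and 1803 where it called 554 at 24 h. The low read counts limit *Slc44a3*, with 1 to 25 reads per library.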
